A study of Aedes aegypti with 20 samples.

Results

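The pedicel, the second segment of the mosquito antenna, houses Johnston's organ, the hearing organ, while the head carries the compound eyes and the brain. A set of 205 genes of the yellow fever mosquito Aedes aegypti is described that was abundant in heads and low in male pedicels. The genes were chosen by measured values. Each had at least 20 CPM (counts scaled to the same library total, not to gene length) in each of the 10 head libraries, and its median over the 5 male pedicels was at most 0.15 times its median over the heads. Of 19804 gene IDs, 3920 met the first limit. A further 3 of 8 IDs that the rule lists as opsins, the light-sensing proteins of the eye, met both limits and were left out.

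The 20 libraries form 4 groups of 5, pedicels and heads of each sex, all of Liverpool genotype. Males were unmated (virgin) and females were without a blood meal. All animals were held 2 days in an incubator and frozen at zeitgeber time 12. The deposited columns call the pedicel by Johnston's organ and the head by the brain, and the sample labels (pedicel, head) are followed here. Whether replicate libraries are from different animals is not stated in the sources used here, so p-values reflect only the spread among libraries, which may be technical.

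Summed estimated counts ran from 5060010 to 9404311 per library. None of the gene IDs matched the RefSeq table of assembly AaegL5.0 (0 of 19804), so only IDs are given, without names or roles, and the tissue labels were not checked against marker genes. The sex labels were checked on 4 IDs that an earlier look at these data had shown to be close to limited to 1 sex. AAEL022711 had 30.9 to 91.2 CPM in male and at most 10.4 CPM in female pedicels, and AAEL010235 between 56.5 and 310.3 CPM in female pedicels and at most 4.56 CPM in male pedicels. Female pedicel 2 held 69 counts of AAEL022711, against 1 to 6 counts in the other female pedicels. In the heads, AAEL022711 had 49.4 to 72.3 CPM in males and a single count over the female libraries, and AAEL010235 had no counts in males. AAEL020474 and AAEL000533 also separated the sexes in both tissues, with no overlap.

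Some libraries stood apart from the rest of their group. Male pedicel 2 held far more of the 205 genes than the other 4 male pedicels, and its values are given separately throughout. In the heads, male head 2 and female head 3 deviated towards the other sex. In 75 of the 205 genes (36.6%), and in 1716 (46.2%) of the other 3712 genes at 20 CPM or more in every head with the 8 opsin IDs left out, the heads followed 1 pattern. The remaining male and female heads differed in their medians, male head 2 was the extreme male library on the female side, and female head 3 the extreme female library on the male side. The IDs limited to 1 sex followed the labels in both libraries.

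The genes ranged widely in how low they fell in male pedicels. The ratio of the male pedicel median to the head median ran from 0.0145 to 0.15, with a median of 0.0973. It was at most 0.05 in 28 genes, between 0.05 and 0.1 in 83 and above 0.1 in 94. The other 3712 head genes had a median ratio of 0.902. The limit of 0.15 did not fall in a gap of the distribution. AAEL006271 (ratio 0.1494) and AAEL019467 (0.1499) lay just inside it, and AAEL016972 (0.1512) and AAEL024132 (0.1516) just outside. These values made the choice and are given as a description only.

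**Figure D1:**
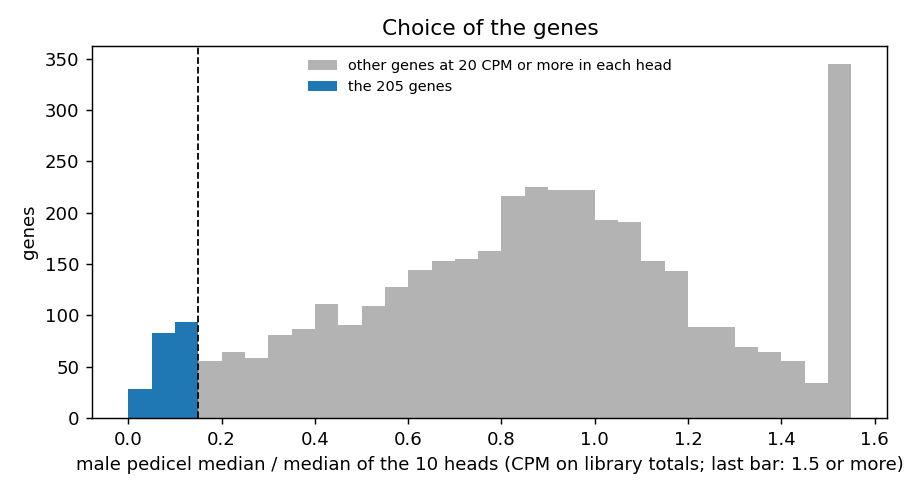
Number of genes (vertical axis) by the ratio of the male pedicel median to the median of the 10 heads (horizontal axis, CPM on library totals, bins of 0.05, the last bar holding 1.5 or more). The 205 genes (blue) lie at or under the dashed limit of 0.15, and the grey bars are the other 3712 genes with at least 20 CPM in each head.

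In the median over the 205 genes, male pedicels stood at 10.5%, 47.3%, 4.87%, 3.61% and 13.4% of the head level in libraries 1 to 5. Female pedicels, which the rule did not use, stood at 47.1%, 17.8%, 27.3%, 27.2% and 28.6%, a mean of 29.6 ± 10.7% (SD, n = 5). All 5 female pedicels therefore lay above male pedicels 1, 3, 4 and 5 in this median. The rule chose genes low in male pedicels, which favours this order, so nothing is read from it. Male pedicel 2 lay above all 5 female pedicels. On TMM-scaled CPM (scaled by the trimmed mean of log ratios between libraries) it stood at 42.8%, below 4 of the 5 female pedicels (24.8% to 53.2%). A low level thus describes male pedicels 1, 3, 4 and 5 (medians of 3.61% to 13.4%) and not male pedicel 2. In male pedicel 5, 126 of the 205 genes lay under 15% of the head. In bulk samples, fewer cells of a type and less RNA per cell cannot be told apart.

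The other 3712 head genes were also lower in some pedicels on library totals. Their median stood at 100.3%, 99.7%, 62.3%, 36.1% and 102.3% of the head in male pedicels 1 to 5 and at 47.0% to 78.6% in female pedicels. The 20 most abundant genes took 25.6% to 61.9% of the counts of a pedicel and 30.0% to 36.6% of those of a head, and without those 20 genes the other head genes stood at 63.5% to 98.2% in male pedicels and at 69.7% to 88.1% in female pedicels. Set against the other head genes of the same library, the 205 genes stood at 7.82% to 13.1% in male pedicels 1, 3, 4 and 5, at 47.4% in male pedicel 2 and at 33.6% to 59.8% in female pedicels. On this scale male pedicel 2 lay within the female pedicels, not above them. The share of counts in transcripts with values identical to those of another gene ID was 2.17% to 35.2% in male pedicels and 6.13% to 26.2% in female pedicels. Male pedicel 2 had 2.23%, close to male pedicel 1.

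**Figure D2:**
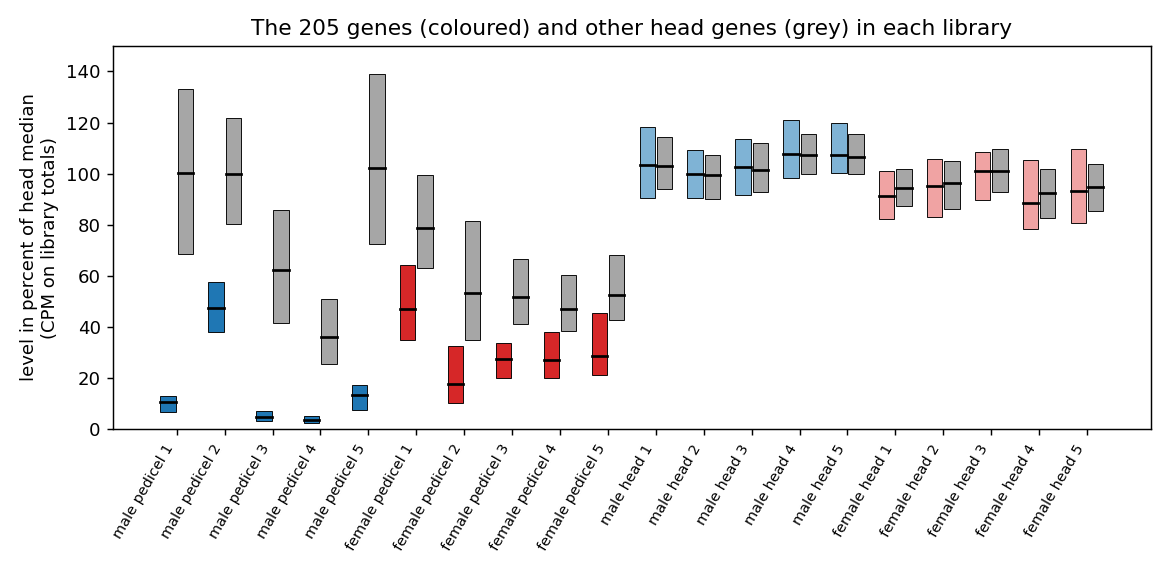
Level of the 205 genes (coloured boxes) and of the other 3712 head genes (grey boxes) in each library, in percent of each gene's median over the 10 heads (CPM on library totals). Boxes span the quartiles over genes and black lines are medians: male pedicels 1, 3, 4 and 5 lie between 3.61% and 13.4%, male pedicel 2 at 47.3% and female pedicels between 17.8% and 47.1%.

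Together the 205 genes made up 10.6% to 12.4% of all counts in heads. They made up 2.97% to 7.77% in female pedicels, 4.41% in male pedicel 2 and 0.276% to 0.893% in the other male pedicels. The 8 opsin IDs are not part of the set. Their summed CPM stood at 37.5% to 88.0% of the head median in female pedicels, 47.0% in male pedicel 2 and 2.01% to 6.90% in the other male pedicels. Nearly all of this sum came from the 3 opsin IDs that met both limits. Their low male pedicel medians were therefore set by the rule, and the sum is given as a description only. AAEL023932 had, in its only transcript, values identical in all libraries to those of AAEL006498, a listed opsin ID. Its counts cannot be assigned to either ID alone, so this gene is not independent of the opsins left out.

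The rule put AAEL009421 and AAEL008756 first, as the genes with the lowest ratio. AAEL009421 had 2.14, 17.4, 0.71, 0.781 and 0.59 CPM in male pedicels 1 to 5, which are 15, 132, 5, 5 and 4 counts. In female pedicels it had 68.2, 17.4, 11.9, 22.9 and 25.2 CPM, and it ranged from 31.3 to 67.6 CPM over the heads. Female pedicel 1 lay above all heads, and the other female pedicels lay below all heads. For AAEL008756 the male pedicels had 0.427, 18.4, 0.852, 0.312 and 2.36 CPM, the females 13.8, 5.89, 14.8, 6.62 and 3.54 CPM and the heads 31.3 to 56.7 CPM. Here all pedicels lay below all heads, and male pedicel 2 was the highest pedicel library. The log2 fold of female pedicel over female head was -0.47 for AAEL009421 (edgeR adjusted p = 0.51, SE 0.53) and -1.62 for AAEL008756 (edgeR adjusted p = 0.034, SE 0.57). The latter call held in 14 of 23 settings, with an edgeR adjusted p of up to 0.13.

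Of the 205 genes, AAEL003116 and AAEL013535 had the highest head CPM, which is not a comparison of transcript levels since CPM is not scaled by length. In male heads AAEL003116 had a mean of 38837 ± 2300.3 CPM, and in female heads a mean of 38918 ± 1826 CPM (SD, n = 5 each). Its pedicel values were 2461, 14381, 902.4, 486.2 and 2459 CPM in males and 31618, 9966, 10858, 11312 and 16881 CPM in females. All pedicels lay below all heads, and female pedicel 1 came closest. For AAEL013535, male pedicel 2 stood at 4484 CPM and the other male pedicels at 207.9 to 835.9 CPM, against 3671 to 11650 CPM in female pedicels and 12219 to 17143 CPM in heads. Here too all pedicels lay below all heads. With all libraries in the fit, neither gene passed the test between female pedicels and female heads. The log2 folds were -0.81 (edgeR adjusted p = 0.22, SE 0.50) for AAEL003116 and -0.72 (edgeR adjusted p = 0.24, SE 0.46) for AAEL013535. Without male pedicel 2, which is in neither group compared, both were called (edgeR adjusted p = 0.012 and 0.016). AAEL003116 was called in 2 of 23 settings and AAEL013535 in 1 of 24.

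**Figure D3:**
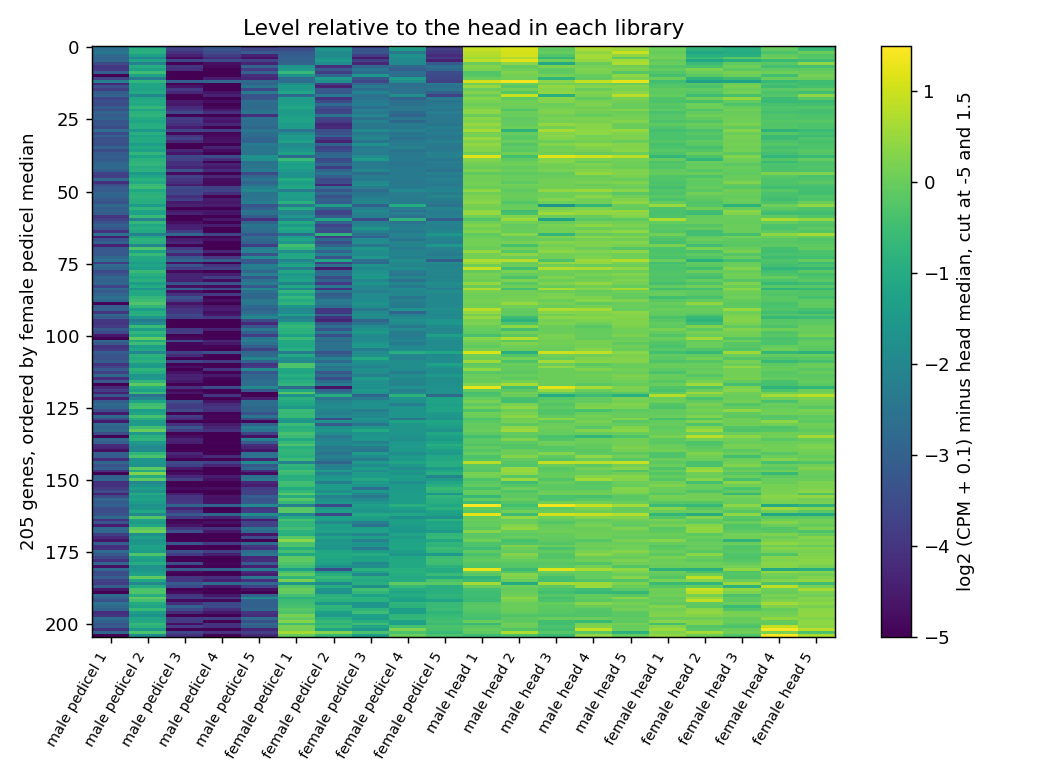
Each row is 1 of the 205 genes, ordered from the lowest to the highest female pedicel median, and each column a library. Colour gives log2 (CPM + 0.1) minus the same for the median of the 10 heads, limited to -5 and 1.5. Male pedicels 1, 3, 4 and 5 are dark, male pedicel 2 is lighter, and heads lie around 0.

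Female pedicels were compared with female heads to see whether genes low in male pedicels were also low in those of females. Of the 205 genes, 115 (56.1%) were lower in female pedicels and 0 were higher (edgeR quasi-likelihood test, adjusted p under 0.05 over 11381 genes). Over all genes tested, 16.5% were called lower and 18.9% higher. Of the other 3712 head genes, 37.7% were lower and 10.6% higher, and of the 179 with a ratio above 0.15 and up to 0.30, 63.1% were lower. At an unadjusted p under 0.05, 143 of the 205 were lower and 0 higher, and DESeq2 and limma-voom called 0 higher too. The rule used the female heads for their level, and all 205 genes passed the filter on low counts because of their heads, so the count is read beside that of the other head genes.

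The log2 fold of female pedicel over female head had a median of -1.16 over the 205 genes and ran from -1.97 to 0.27, against a median of 0.08 over all genes tested, -0.25 over the other head genes and -0.92 over the 179. It was negative in 203 genes, the exceptions being AAEL004097 and AAEL012337, neither of them called. On library totals alone the medians were -1.66 for the 205 genes and -0.43 for all genes tested. The count of 115 changed with the libraries in the fit. Without male pedicel 2, which is in neither group compared, 179 of the 205 genes were lower, and all 115 were among them. A fit of the female libraries alone gave 164. Without male pedicel 2 this was 87.3% of the 205 genes, against 42.1% of the other head genes and 19.1% of all genes tested. In the female fit the shares were 80%, 33.3% and 16.4%. Of the 179 head genes next above the ratio limit, 84.4% and 76.5% were lower in these fits, close to the shares of the 205. Among female pedicels with an identical-copy share of at most 20% (n = 2) the count was 56, and above 20% (n = 3) it was 70. These were 27.3% and 34.1% of the 205 genes, against 27.9% and 35.7% of the other head genes. Over all genes tested the shares were 11.8% and 14.3%. In neither subset were the 205 genes called lower more often than the other head genes. Their median log2 folds were -1.30 and -1.14 there, against -0.26 and -0.27 for the other head genes. The fold was negative in 204 and 201 of the 205 genes. Both of these fits kept male pedicel 2.

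**Figure D4:**
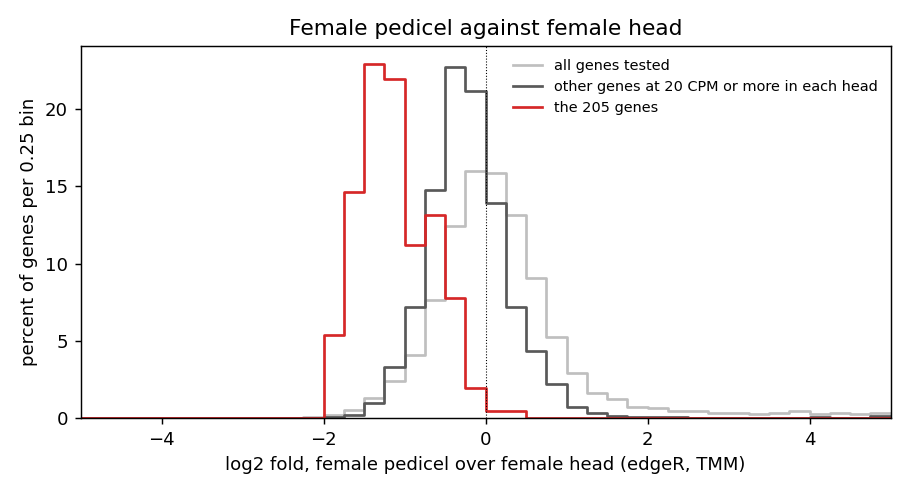
Distribution of log2 folds of female pedicel over female head (horizontal axis, edgeR with TMM scaling) in percent of genes per bin of 0.25. The 205 genes (red, median -1.16) lie to the left of the other head genes (dark grey, median -0.25) and of all genes tested (light grey, median 0.08).

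AAEL006719 and AAEL008847 had the most negative folds in this comparison. AAEL006719 had 114.8, 232.1, 42.6, 221.4 and 92.7 CPM in female pedicels and 861.8, 566.0, 788.8, 749.6 and 1109 CPM in female heads, and its log2 fold was -1.97 (edgeR adjusted p = 0.0049, SE 0.50). AAEL008847 had 10.3, 3.02, 5.26, 3.46 and 4.29 CPM in female pedicels and 26.5 to 34.0 CPM in female heads, and its log2 fold was -1.97 too (edgeR adjusted p = 0.0013, SE 0.41). In neither gene did the groups overlap. In 180 of the 205 genes (87.8%) all 5 female pedicels lay below all 5 female heads on library totals. This held in 56.5% of the other head genes and 28.5% of all genes tested. With TMM scaling it held in 147 of the 205 (71.7%), in 31% of the other head genes and in 13.8% of all genes tested.

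The female pedicel median in percent of the median over all heads was highest in AAEL020895 and AAEL004097. AAEL020895 had 30.1, 20.1, 11.9, 32.7 and 24.99 CPM in female pedicels, 79.1% in the median, and 25.9 to 104.8 CPM in female heads, and its fold on the log2 scale was -0.57 (edgeR adjusted p = 0.37, SE 0.47). Its male pedicels had 0.597, 8.83, 1.7, 0.156 and 1.48 CPM. AAEL004097 had 114.9, 90.2, 56.7, 57.4 and 47.4 CPM in female pedicels, 78.5% in the median, and 59.1 to 113.1 CPM in female heads, and its fold on the log2 scale was 0.27 (edgeR adjusted p = 0.67, SE 0.46). Female pedicels and heads overlapped in both genes. In male pedicels AAEL004097 had 10.4, 58.0, 5.82, 4.22 and 5.17 CPM, of which only male pedicel 2 lay within the female pedicel range.

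The female pedicel median was under 15% of the head in 10 genes, between 15% and 50% in 171 and at least 50% in 24. It exceeded the male pedicel median in 202 genes, which the choice of genes low in males favours. In 109 genes all 5 female pedicels lay above male pedicels 1, 3, 4 and 5, as in 6.74% of all genes tested, and in 9 above all 5 male pedicels, as in 2.79%. The rule used the male pedicels, so nothing is read from these shares. With TMM scaling the last count was 46 (22.4%), against 10.5% of all genes tested and 10.8% of the other head genes. Nothing is read from this share either. The genes whose female pedicel median did not exceed that of males, named after their values were seen, were AAEL002693, AAEL007776 and AAEL007780. AAEL007776 had 27.1, 90.4, 24.8, 186.7 and 19.95 CPM in female pedicels, against 58.7, 94.1, 27.7, 43.1 and 19.92 CPM in male pedicels, so the sexes overlapped.

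Female pedicels did not rank the same way in every gene. Female pedicel 1 was the highest of the 5 in 158 genes and female pedicel 2 the lowest in 135. Between female pedicels the coefficient of variation had a median of 45.2% over the 205 genes and 27.6% over the other head genes. In 90 genes (43.9%) female pedicels 1 and 5 lay above the other three, as in 22.1% of the other head genes. Sets defined by such orders were chosen after their values were seen and are described with no test.

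A set of 14 genes had female pedicels 2 and 4 above the other three, which was 6.83% of the 205 and 0.242% of the other head genes. It held AAEL006719, AAEL007776, AAEL007780, AAEL002693, AAEL007986 and AAEL020512 among others. Its median level was 14.1%, 31.9%, 9.11%, 30.1% and 7.31% of the head in female pedicels 1 to 5. In all 14 genes male head 3 was the lowest male head, which held for 14 of the 90 genes with female pedicels 1 and 5 highest. AAEL007986 shows the pattern, with 289.1, 487.1, 128.9, 538.1 and 139.5 CPM in female pedicels. Its male heads had 749.6, 943.7, 469.5, 644.5 and 508.1 CPM and its female heads 933.2 to 1656 CPM, and its log2 fold of female pedicel over female head was -1.51 (SE 0.46, edgeR adjusted p = 0.016).

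Another set of 13 genes had female pedicels 3, 4 and 5 above 1 and 2, which was 6.34% of the 205 and 5.23% of the other head genes. Its median level was 22.6%, 8.73%, 30.9%, 30.5% and 31.4% of the head in female pedicels 1 to 5. In all 13 genes male head 2 was the lowest male head and female head 3 the highest female head. This held in 0 of the 14 genes with female pedicels 2 and 4 highest. It held in 17 of the 90 with 1 and 5 highest and in 36 of the 88 in none of these sets. Among the other 3712 head genes, male head 2 was the lowest male head in 1607 and female head 3 the highest female head in 1703. AAEL013042, of the set of 13, stood at 182.8, 53.0, 163.4, 145.8 and 129.7 CPM among male heads and at 47.9, 39.6, 101.2, 35.9 and 37.8 CPM among female heads. Its male heads other than 2 all lay above its female heads. It was also the only gene in which male pedicel 2, at 20.6 CPM, was not the highest male pedicel, male pedicel 5 having 22.7 CPM.

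Male pedicel 2 was the highest male pedicel in the other 204 genes. Its level was 1.85 to 43.8 times the median of the other 4 male pedicels, with a median of 6.81 times. In the median of the other head genes it was 1.299 times. The rule chose genes with a low male pedicel median, which favours a high value here. The 179 head genes next above the ratio limit had medians of 57.2% of the head in male pedicel 2 and 9.24% to 27.3% in the other male pedicels. On library totals male pedicel 2 lay above all 5 female pedicels in 114 genes (55.6%), within their range in 82 (40%) and below all of them in 9 (4.39%). Over all genes tested these shares were 56.1%, 37.7% and 6.22%. Among the other head genes it lay above all 5 female pedicels in 75.6%. With TMM scaling it lay above all female pedicels in 53 genes (25.9%), within their range in 105 (51.2%) and below them in 47 (22.9%). Over all genes tested the shares with TMM scaling were 21.7%, 57% and 21.3%. The level of male pedicel 2 was at least 50% of the head in 82 genes, and the interquartile range over genes was 38.0% to 57.7%. It had no counts of AAEL010235 and a single count of AAEL000533, the female-limited IDs, against 0 to 32 counts and 0 to 5 counts in the other male pedicels.

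The level of male pedicel 2 relative to the head was highest in AAEL009858 and AAEL028210. AAEL009858 stood at 4.27, 166.9, 4.97, 2.97 and 4.87 CPM among male pedicels 1 to 5. Male heads had 137.4 to 179.8 CPM and female heads 92.9 to 149.5 CPM, so male pedicel 2, at 119.2% of the head median, lay within the heads and the other 4 male pedicels far below. Its female pedicels had 32.2 to 94.96 CPM (log2 fold over female head -0.56, SE 0.72, edgeR adjusted p = 0.57). AAEL009858 was called in 1 of 23 settings, without male pedicel 2 (edgeR adjusted p = 0.036). AAEL028210 had 38.3 CPM in male pedicel 2, 104.8% of the head median, 1.41 to 5.12 CPM in the other male pedicels and 12.5 to 20.4 CPM in female pedicels.

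Male pedicel 2 was lowest relative to the head in AAEL007986, at 16.2%, and AAEL009380, at 19.3%. AAEL009380 stood at 67.3, 201.6, 29.8, 25.1 and 92.1 CPM among male pedicels and at 275.8, 51.2, 136.0, 312.7 and 345.0 CPM among female pedicels. Its female pedicels lay below its female heads, at 614.0 to 1312 CPM (log2 fold -1.49, SE 0.45, edgeR adjusted p = 0.014). In this gene male pedicel 2 was below 3 of the 5 female pedicels.

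**Figure D5:**
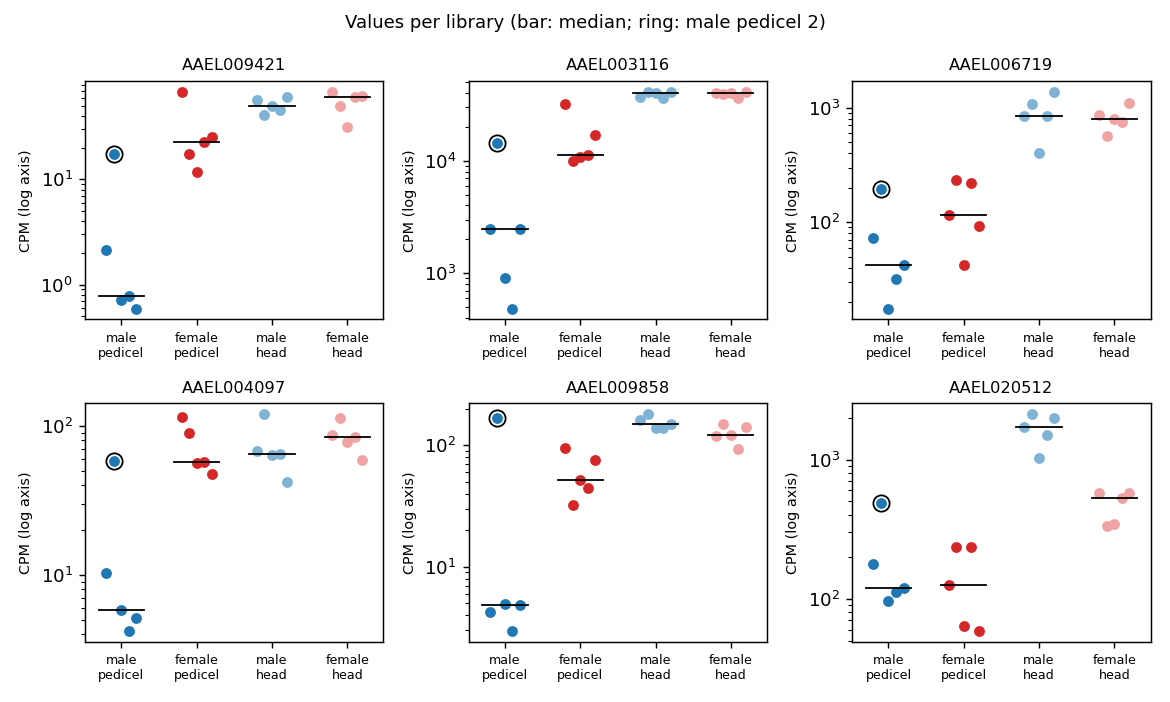
CPM on library totals (log axis) of 6 genes in each library, with 5 points a group, a bar at the median and a ring around male pedicel 2. In AAEL009858 the ringed library, at 166.9 CPM, lies among the heads, and in AAEL020512 male heads (1033 to 2113 CPM) lie above female heads (331.8 to 575.5 CPM).

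Male and female heads were compared to see whether these genes differ between the sexes in the tissue where they are abundant. Of the 205 genes, 2 (0.976%) were called, both higher in males (edgeR adjusted p under 0.05). Over all genes tested 7.86% were called, 1.12% higher and 6.73% lower in males. With 0 genes called lower in males, 1 was lower and 11 were higher at an unadjusted p under 0.05, and DESeq2 and limma-voom also called 0 lower. The log2 fold of male over female head had a median of 0.13 and ran from -1.07 to 1.76.

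The male heads had 1716, 2113, 1033, 1492 and 1970 CPM of AAEL020512 and the female heads 574.0, 331.8, 343.2, 525.1 and 575.5 CPM, and its log2 fold was 1.76 (edgeR adjusted p = 0.013, SE 0.43). All male heads lay above all female heads. Its pedicels overlapped between the sexes, from 96.1 to 489.9 CPM (males) and 58.7 to 234.9 CPM (females). The male heads had 78.0, 24.5, 76.4, 70.5 and 60.4 CPM of AAEL005463 and the female heads 21.0, 27.1, 40.4, 20.8 and 22.4 CPM (log2 fold 1.17, SE 0.34, edgeR adjusted p = 0.042). This call held in 13 of 23 settings, with an edgeR adjusted p of up to 0.116, without male head 1. Male head 2 lay among the female heads, and female head 3 was the highest female library.

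The count of sex differences in the head changed with the libraries in the fit. With all libraries, 2 of the 205 genes (0.976%) were called, against 7.86% of all genes tested. The share of the 205 genes was thus below that of all genes tested in this fit, and above it in a fit of the heads alone. When male head 2 and female head 3 were omitted, a choice made with the values known, 9 genes (4.39%) were called, all higher in males, against 8.51% of the other head genes and 6.21% of all genes tested higher. A fit of the heads alone called 38 (18.5%), 21 higher and 17 lower in males, against 14.3% of all genes tested. Without male pedicel 2, which is no head library, 7 (3.41%) were called, against 8.56% of all genes tested. Lower in males were 5 of them (2.44%), against 7.13% of all genes tested. Of the 9, 7 belonged to the set of 13 genes with female pedicels 3, 4 and 5 highest. They included AAEL013042 (log2 fold 1.88, edgeR adjusted p = 0.0096) and AAEL019467 (1.02, 0.039). For the latter, male heads stood at 139.9, 52.8, 144.2, 120.1 and 127.2 CPM and female heads at 66.7, 70.6, 111.8, 52.3 and 61.0 CPM, and with all libraries its log2 fold was 0.63 (SE 0.33, edgeR adjusted p = 0.28).

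The main transcript of a gene was compared between heads and pedicels where the table gives several. The table gives 1 transcript for 110 of the 205 genes and several for 95, up to 25. In 75 of the 95, the transcript with the most counts was the same in heads and in female pedicels. In the other 20 (21.1%) it was not, as in 23.2% of the other head genes with several transcripts, and in 0 of the 20 were its shares in heads and in female pedicels without overlap. Between male pedicels and heads it differed in 22 (23.2%). The shares in heads and female pedicels were separated in 2 of the 95 genes (2.11%), against 3.32% of those other head genes. They were named after their values were seen. In AAEL000288 the main transcript took 95.1% to 97.4% of the counts in heads and 73.9% to 95.02% in female pedicels. In AAEL012337 it took 36.7% to 72.2% in heads and 80.8% to 100% in female pedicels. These shares are from the deposited estimated counts and were not tested.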

How the data were processed

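The labels' protocols give phenol-chloroform extraction. Per the submitters' processing notes, the tools were FastQC, HISAT2 and featureCounts. No version, genome build or annotation is given in the sources used here. The authors deposited 1 table of estimated counts per transcript (34477 transcripts), not scaled between libraries, whose columns were matched to samples through the labels. Estimated counts were summed by gene ID and, for the tests, rounded to whole numbers. Depth ran from 5060010 to 9404311 per library, where 3 counts are 0.395 to 0.559 CPM in pedicels. Male pedicel values of a few counts are therefore imprecise.

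CPM in the text uses library totals. Log2 folds come from edgeR 4.0.16 in R 4.3.3, on 11381 genes passing filterByExpr by group, with TMM scaling, a mean per group, robust glmQLFit over all 20 libraries, glmQLFTest and Benjamini-Hochberg adjustment. The SE was taken from the fold and the F statistic (fold over root F). The steps were checked on simulated data. Alternatives used DESeq2 1.42.0, limma 3.58.1 (voom), other scalings and filters, and left-out libraries.

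The members, gene lists and tests were chosen with earlier results of these data known. The rule for naming IDs took the 2 extremes of each measure: ratio, head CPM, female pedicel fold and level, male pedicel 2, sex fold in the head, and both sides of the limit. Other IDs were named after their values were seen, as said there. Male pedicel against head or against female pedicel, and the interaction, were used by the rule and not tested. Planned lists by gene name were not used because no ID had a name. No sequence is shown since no source used here pairs an ID with one.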

Additional observations from a re-analysis of the deposited data

Results flagged for a closer look

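Libraries are listed here whose gap to the nearest of the 5 in their group took more than 0.71 of the group's range, a limit that chance passes in about 1 of 20 groups. Among the 72 groups of the 18 named IDs it was passed 18 times, 12 of them by male pedicel 2. Over the 205 genes it was passed by male pedicel 2 in 150, and by no other male pedicel. The rule used the male pedicels, and a low median leaves room for a single high library. AAEL009858 and AAEL028210 were named for their high level in male pedicel 2, and values of the same library can vary together. These counts are therefore a description and are not read against the chance rate.

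Male pedicel 2 stood apart in the median level of the 205 genes (47.3% of the head), their summed share of counts (4.41%) and the summed opsin IDs (47.0% of the head). Its CPM stood apart in AAEL009421 (17.4), AAEL008756 (18.4), AAEL003116 (14381), AAEL013535 (4484), AAEL008847 (12.5), AAEL020895 (8.83), AAEL004097 (58.0), AAEL009858 (166.9), AAEL028210 (38.3), AAEL020512 (489.9) and AAEL006271 (63.0), and in AAEL016972 (111.3), which lies just outside the ratio limit.

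Female pedicel 1 stood apart in AAEL009421 (68.2 CPM) and in the median level of the other head genes (78.6%). In the heads, male head 2 stood apart in AAEL009380 (594.7 CPM) and AAEL019467 (52.8 CPM), male head 1 in AAEL028210 (45.5 CPM), and female head 2 in AAEL008847 (34.0 CPM) and AAEL028210 (48.3 CPM).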

How the results depend on the processing

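The count of 115 genes lower in female pedicels stayed within 1.5 times under every other scaling, filter, tool and sample set run than those named next, running from 82 to 111 when a library of the groups compared was left out. It was 179 without male pedicel 2, 56 with the female pedicels at or under 20% identical-copy share and 70 with those above it, all added after seeing the data. The last 2 settings test fewer libraries. In them 27.9% and 35.7% of the other head genes were lower, against 27.3% and 34.1% of the 205. The median log2 folds in them were -0.26 and -0.27 for the other head genes and -1.30 and -1.14 for the 205. In the first setting 87.3% of the 205 genes were lower, against 42.1% of the other head genes. Of the 179 head genes next above the ratio limit, 84.4% were lower. For this setting the cause was not tested. In DESeq2, 154 of the 205 genes had an adjusted p, and 101 were called lower. The 2 sex differences in the head became 1 with library totals alone or no filter, 4 with DESeq2, 38 in a fit of the heads alone, 7 without male pedicel 2 (5 of them lower in males), 9 without male head 2 and female head 3, and 1 to 5 with 1 head library left out (4 without male head 2, 5 without female head 3, 1 without any other). Without male pedicel 2, 8.56% of all genes tested differed between the heads. The number of genes meeting the rule was 111 at a ratio limit of 0.10, 124 at a head minimum of 50 CPM, and 155 to 247 without 1 male pedicel. With TMM-scaled CPM, 184 genes met it, 174 of them among the 205. The mean female pedicel level was 43.1% with TMM-scaled CPM, and 25.2% to 32.5% without 1 female pedicel. Same-numbered deviations correlated at -0.02 to 0.34 between female pedicels and female heads, where 1 of 5 numbers matched best with itself, and at 0.02 to 0.32 between male and female heads, where 3 of 5 did. Not every pair passed 0.1, so the numbers were not used as pairs. With the replicate block, 117 genes were lower in female pedicels and 3 differed between the heads. Depth limits the genes with few counts in male pedicels.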
